A study of Mus musculus with 4 samples.

Results

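The comparison described here sets the dorsomedial striatum of mice carrying the humanised form of Foxp2 on both alleles against that of wild-type mice. It used the 12 libraries labelled Foxp2hum/hum DMS and the 11 libraries labelled wild-type DMS, 23 of the 46 libraries in the series. The other libraries, 12 Foxp2hum/hum and 11 wild-type, came from the dorsolateral striatum and are used below to show where the regions differ. All mice were 8 weeks old and of strain C57BL/6, and no drug or training is given in the labels. The tissue was cut from frozen brain by laser capture, and each library was made from 15 ng of total RNA. The allele is constitutive, so every cell type in a capture carried it, and the labels tie no library to an animal, litter or flow cell. Each p-value below therefore sets a difference against the spread between libraries, part of which may be technical. In limma that spread is estimated over all 46 libraries, dorsolateral ones included.

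Foxp2 encodes a forkhead transcription factor that binds DNA as a dimer and mostly represses its targets. Loss of a functional FOXP2 copy in people causes a speech and language disorder, and in the mouse the gene is strongly transcribed in the medium spiny neurons of the striatum. These neurons project out of the striatum and form the direct pathway, which bears dopamine D1 receptors, and the indirect pathway, which bears D2 receptors. Actions chosen for their outcome depend on the dorsomedial sector, and overtrained routines on its lateral neighbour. The series concerns the passage from one kind of learning to the other in mice with this allele, and the question here is which dorsomedial transcripts differ with it.

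The humanised allele replaces a threonine codon by asparagine and an asparagine codon by serine, the changes that separate the human from the mouse protein in this stretch. The mouse sequence that holds both codons is shown because it is what the allele alters, with the affected codons in capitals.
Foxp2 coding stretch, mouse: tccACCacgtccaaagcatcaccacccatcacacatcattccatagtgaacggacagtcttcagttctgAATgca
It lies at chr6:15344768-15344842 on the plus strand of mm9, within exon 7 of 17 of the transcript ENSMUST00000031545.7, and 21 codons separate the capitals. A count of reads per gene cannot tell the alleles apart, so the values below give the amount of Foxp2 transcript and not its form.

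The libraries held 21.4 to 29.7 M reads in Foxp2hum/hum and 17.98 to 34.8 M in wild-type mice. Several measures differed between libraries within a genotype. Reads of the mitochondrial genome made up 15.6%, 22.1% and 27.4% (lowest, median and highest) of Foxp2hum/hum libraries and 11.9%, 21.5% and 26.3% of wild-type libraries. Ttr, the transthyretin gene of the choroid plexus, exceeded 1000 normalised reads in 6 of 12 Foxp2hum/hum and 1 of 11 wild-type libraries. Xist was above 1000 and the Y-linked Ddx3y below 100 in 6 of 12 Foxp2hum/hum and 5 of 11 wild-type libraries, so both genotypes held libraries of either kind in near-equal numbers. Wild-type library 72 had the lowest correlation with the median profile of the other libraries (r = 0.947), followed by Foxp2hum/hum library 64 (r = 0.950) and wild-type library 76 (r = 0.960), and library 72 also had the lowest mitochondrial share. The part of these measures in the results below was not tested, except where a value with the measure as a covariate or without the library is given.

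**Figure D1:**
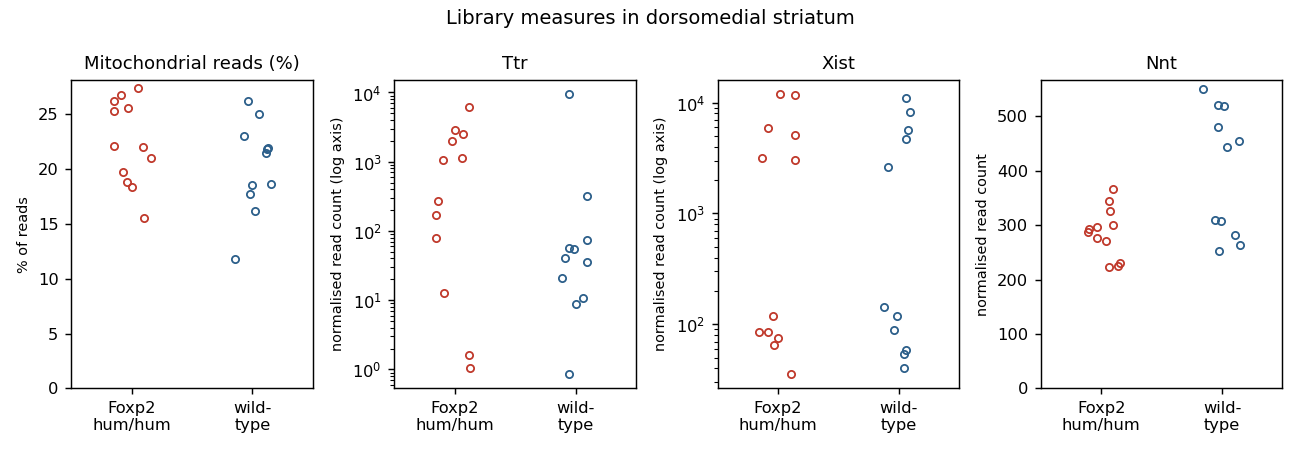
Share of reads from the mitochondrial genome (% of reads) and normalised read counts of Ttr, Xist and Nnt (log axes for Ttr and Xist) in each of the 12 Foxp2hum/hum (left) and 11 wild-type (right) dorsomedial libraries, one point per library. Ttr exceeds 1000 in 6 Foxp2hum/hum libraries and 1 wild-type library, and Nnt reaches 444 and more only in wild-type libraries.

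Regional and neuronal markers were those of the labelled tissue. Crym, a thyroid hormone binding protein enriched in the medial striatum, had 2570.2 to 4135 normalised reads in Foxp2hum/hum and 2487 to 4073 in wild-type dorsomedial libraries, and no dorsolateral library of either genotype exceeded 515. Cnr1, the cannabinoid receptor, more abundant in lateral striatum, stayed at or below 1847 in Foxp2hum/hum and 2532 in wild-type dorsomedial libraries, and no dorsolateral library had under 8362. Medium spiny neuron genes dominated both genotypes: Ppp1r1b, which encodes the dopamine signalling integrator DARPP-32, had 21733 to 35237 normalised reads in Foxp2hum/hum and 25866 to 35523 in wild-type libraries, with 1700003D09Rik overlapping at 78.8% of its value. Slc17a7, the vesicular glutamate transporter of cortical neurons, had 28.8 to 215 in Foxp2hum/hum and 38.1 to 386 in wild-type libraries. The 6 cortical neuron markers in the table summed to 65.7 to 301.2 in Foxp2hum/hum and 63.5 to 511 in wild-type libraries. All 4 of these markers that were tested had a negative log2 difference (Foxp2hum/hum minus wild-type).

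Foxp2 transcript did not differ detectably between the genotypes. It had 1147, 1287 and 1784 normalised reads (lowest, median and highest) in Foxp2hum/hum libraries, against 887, 1435 and 1703 in wild-type libraries. The groups overlapped almost fully: 11 of 12 Foxp2hum/hum libraries lay inside the wild-type range, library 84 lay above it, and 10 of 12 lay below the wild-type median although the means were close, at 1332 ± 193 in Foxp2hum/hum and 1337 ± 263 in wild-type libraries (SD, n = 12 and 11). The log2 difference, Foxp2hum/hum minus wild-type on log2(value + 1), was 0.0085 ± 0.11 (SE), with a 95% interval of -0.21 to 0.23, and a two-sided permutation test over the libraries with 100000 resamples gave p = 0.928. On a linear scale the interval ran from 0.863 to 1.17 of the wild-type level.

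The paralogues overlapped between the genotypes as well. Foxp1, which pairs with Foxp2 and is abundant in medium spiny neurons, had 2257, 3666 and 5003 normalised reads in Foxp2hum/hum libraries, against 2503, 3890.1 and 7283 in wild-type libraries. In both genotypes the libraries with the highest and lowest Foxp1 values (84 and 64, 72 and 34) were also those with the highest and lowest Foxp2 values. Its log2 difference was -0.17 ± 0.16 (SE), with p of 0.291 in the limma fit. Foxp4 had 200.6, 259.5 and 344.7 in Foxp2hum/hum libraries, against 186, 279 and 380.2 in wild-type libraries, with overlapping groups and a log2 difference of -0.11 ± 0.14 (p of 0.441). Among 12 genes of the Foxp family and its partners, the dimer partners and co-repressors that carry Foxp proteins to DNA or to chromatin, 3 lay above and 9 below 0 with a median log2 difference of -0.09, against 0.00036 over all genes tested. The co-repressor Ctbp1 had the smallest standard error of them, at 2088 ± 143 in Foxp2hum/hum and 2090.5 ± 155 in wild-type libraries (SD), a log2 difference of -0.0014 with an interval of -0.10 to 0.10. The median of the 12 genes became -0.01 with the mitochondrial share of each library as a covariate and -0.05 without wild-type library 72. Foxp3 overlaps Ppp1r3f, a gene described below, so its reads cannot be told apart from that gene's.

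**Figure D2:**
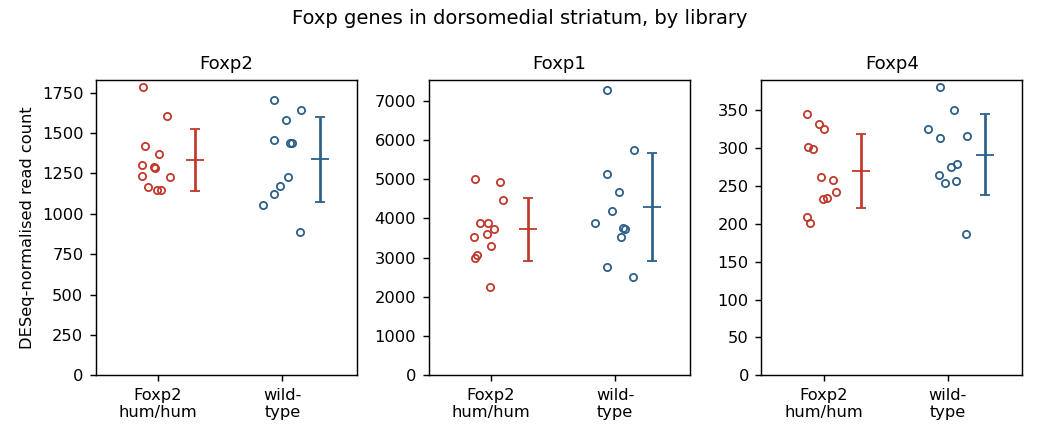
Normalised read counts of Foxp2, Foxp1 and Foxp4 in the 12 Foxp2hum/hum (left) and 11 wild-type (right) dorsomedial libraries. Open points are libraries, and the bars beside them are mean ± SD. In all 3 genes the points of the genotypes overlap, and Foxp2 averages 1332 ± 193 in Foxp2hum/hum and 1337 ± 263 in wild-type libraries.

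The 26 tested genes within 5 Mb of Foxp2 on chromosome 6, the stretch most closely linked to the allele, held no gene past either threshold: 0 of 26 had an adjusted p under 0.05 and 0 an unadjusted p under 0.05. Of them 16 lay above and 10 below 0, with a median log2 difference of 0.07. Capza2, an actin capping subunit, had 2424 to 3693 normalised reads in Foxp2hum/hum and 2071 to 3459 in wild-type libraries, overlapping ranges with a difference of 0.11 ± 0.07 (p of 0.127). Mdfic, the next tested gene downstream, had 31.4 to 99.1 in Foxp2hum/hum and 51.7 to 102 in wild-type libraries, with -0.02 ± 0.20 (p of 0.924). Just outside that window, 5.65 Mb from Foxp2, lay Nxph1, the nearest gene at an unadjusted p under 0.05. It differed by 0.30 ± 0.11 in the dorsomedial and by 0.23 in the dorsolateral striatum (p of 0.0061 and 0.0363 in limma). Within 10 Mb, a width chosen after the values were seen, 4 of 69 tested genes (5.80%, against 3.58% of all genes) had an unadjusted p under 0.05 and 0 an adjusted p under 0.05.

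Across the transcriptome no gene passed the test. Of 19561 genes with a mean of at least 10 normalised reads, 0 (0%) had a Benjamini-Hochberg adjusted p under 0.05 in limma, and the smallest adjusted p was 0.955. edgeR's quasi-likelihood test and DESeq2 on the recovered whole reads also called 0. At an unadjusted p under 0.05 there were 700 genes (3.58%), 389 of them (1.99%) higher and 311 (1.59%) lower in Foxp2hum/hum, and 453 without wild-type library 72. The corresponding counts were 315 higher and 442 lower (757 in all) in edgeR and 333 higher and 380 lower (713) in DESeq2. No gene separated the genotypes completely: 0 genes (0%) had every Foxp2hum/hum library above, or every one below, all wild-type libraries. The names that follow are therefore descriptions of the most extreme values and not calls.

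How large a difference the libraries could have missed varied with the gene. The 95% interval lay within 2-fold in either direction for 91.3% of genes tested, within 1.5-fold for 71.7% and within 1.25-fold for 32.5%. Among 15263 genes with a mean of at least 50, the median size of the log2 difference was 0.09, and its 95th percentile was 0.29. In the same genes 46 differed by more than 1.5-fold and 10 by more than 1 on the log2 scale. Ttr had the largest positive difference of the 19561 genes, at 2.22 ± 1.15 (SE), with an interval of -0.09 to 4.52, and its values ran over the range 1.06 to 6159.6 in Foxp2hum/hum and 0.847 to 9582 in wild-type libraries.

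**Figure D3:**
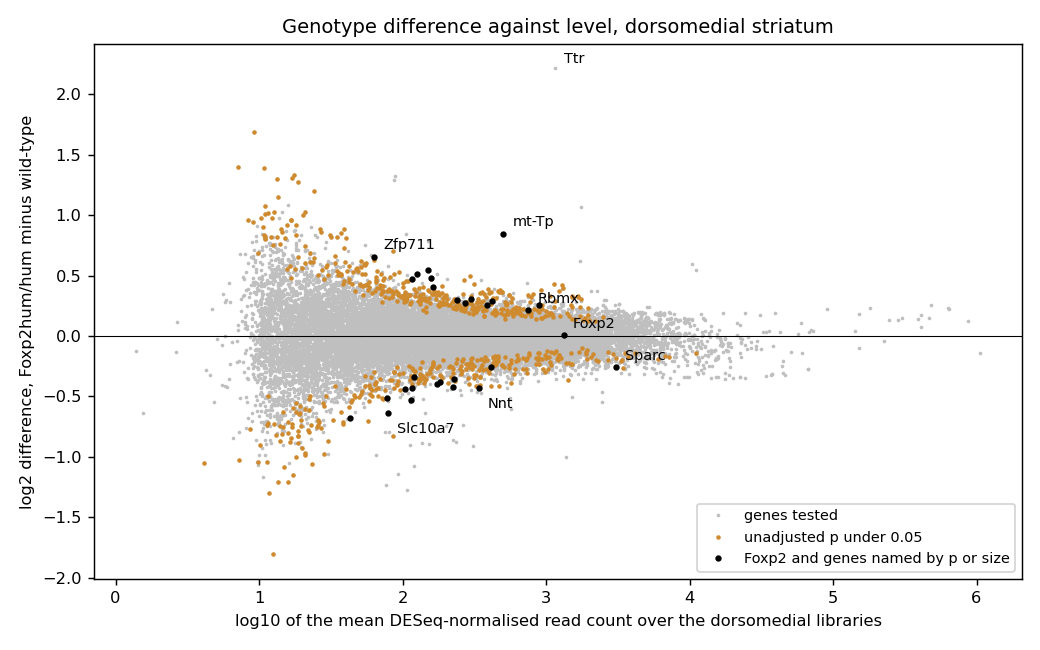
Log2 difference (Foxp2hum/hum minus wild-type) of each of the 19561 genes tested against log10 of its mean normalised read count over the dorsomedial libraries. Grey points are genes tested, orange points the 700 with an unadjusted p under 0.05, and black points Foxp2 and the genes named by p or size. Foxp2 lies close to the zero line and Ttr at the top.

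The genes named next were picked by p or by size of difference, leaving out numbered gene models such as those called Gm or Rik. On the higher side 21 such models with a mean of at least 50 had a smaller p than the last of the 10 genes named by p, 11 of them from 1 cluster on chromosome 2, and on the lower side 2 had. Among the genes named on the higher side Mrpl19 had the smallest p. Mrpl19, a protein of the large subunit of the mitochondrial ribosome, had 320.3, 401 and 527 normalised reads in Foxp2hum/hum libraries, against 272, 348 and 406 in wild-type libraries. The groups overlapped, with 8 of 12 Foxp2hum/hum libraries inside the wild-type range and 4 above it. The difference was 0.26 ± 0.08 (SE), 1.2-fold, with an unadjusted limma p of 0.00248. A neighbouring gene, AW146020, overlaps it with a value 35.01% as large, so part of its reads may belong there. Dcaf13, a nucleolar protein needed to mature the small ribosomal subunit, had 227, 298 and 396 in Foxp2hum/hum libraries, against 196, 240.2 and 282 in wild-type libraries. For Dcaf13 8 of 12 Foxp2hum/hum libraries exceeded every wild-type library, library 4 being the highest, and the difference was 0.28 ± 0.09 (p of 0.00471). Rbmx, an X-linked RNA-binding protein of the spliceosome, had 591, 809 and 985 in Foxp2hum/hum libraries, against 595, 682 and 846 in wild-type libraries. Here 11 of 12 Foxp2hum/hum libraries lay above the wild-type median, library 4 was the lowest of all 23, and the difference was 0.21 ± 0.08 (p of 0.00664).

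Snx4, a sorting nexin that returns cargo from endosomes to the cell surface, had 358, 439 and 581 normalised reads in Foxp2hum/hum libraries, against 256, 387 and 445 in wild-type libraries. Of the Foxp2hum/hum libraries 5 lay above the wild-type range and 7 inside it, and wild-type library 34 was the lowest of all. The difference was 0.29 ± 0.09 (SE), 1.22-fold (p of 0.00338). Nxph1, the gene 5.65 Mb from Foxp2, encodes neurexophilin, a secreted ligand of presynaptic neurexins. It had 254, 325 and 389 in Foxp2hum/hum libraries, against 202, 264 and 336 in wild-type libraries, with 5 of 12 Foxp2hum/hum libraries above the wild-type range and wild-type library 76 the lowest of all. Its difference was 0.30 ± 0.11 (p of 0.0061). Mobkl3, a striatin-binding protein of endocytic vesicles also called phocein, had 746, 954 and 1175 in Foxp2hum/hum libraries, against 482, 861 and 1003 in wild-type libraries. Library 76 was again the lowest wild-type value, the groups overlapped in 8 of 12 Foxp2hum/hum libraries, and the difference was 0.26 ± 0.09 (p of 0.00576), or 0.18 without library 76.

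Among nuclear proteins on this side, Zfp711, an X-linked zinc finger factor whose human counterpart is linked to intellectual disability, had 51.9, 68.2 and 112 normalised reads in Foxp2hum/hum libraries, against 12.7, 49.1 and 81.5 in wild-type libraries. Each of the 12 Foxp2hum/hum libraries lay above the wild-type median, 3 lay above the wild-type range, and 6 wild-type libraries lay below every Foxp2hum/hum library. Its difference was 0.66 ± 0.22 (SE), 1.58-fold (p of 0.00424), 0.65 with Xist as a covariate, and 0.48 without wild-type library 76, whose value was the lowest. Cdkn2aip, which binds the tumour suppressor ARF, had 133, 184 and 293 in Foxp2hum/hum libraries, against 98.3, 147 and 178 in wild-type libraries. Of the Foxp2hum/hum libraries 7 lay above the wild-type range, led by library 41, and the difference was 0.41 ± 0.14 (p of 0.00444). Ankrd32, an ankyrin-repeat protein of DNA repair, had 113, 135 and 248 in Foxp2hum/hum libraries, against 30.5, 101 and 189 in wild-type libraries. All 12 Foxp2hum/hum values exceeded the wild-type median, only library 64 exceeded the wild-type range, and the difference of 0.51 (p of 0.00737) became 0.35 without wild-type library 76.

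The remaining named genes on the higher side carry limits of their own. The mitochondrial proline tRNA gene mt-Tp had 272, 504 and 1814 normalised reads in Foxp2hum/hum libraries, against 123, 378 and 653 in wild-type libraries. Library 87 stood far above the rest, 9 of 12 Foxp2hum/hum libraries lay inside the wild-type range, and the difference was 0.85 ± 0.29 (SE, p of 0.00591). Rbl1, the retinoblastoma relative p107, differed by 0.47 (p of 0.0161), with all 12 Foxp2hum/hum libraries inside the wild-type range, and Gm14277 overlaps it with a value 77.4% as large. Uchl4, a ubiquitin hydrolase, differed by 0.48 (p of 0.0171, and 0.0706 without wild-type library 72) and lies within Map2k1, whose reads cannot be told apart from its own. Cml1 differed by 0.29 (p of 0.00585) and D10627 by 0.55 (p of 0.00934). In D10627 the difference was 0.36 without wild-type library 76.

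On the lower side, 3 of the 10 genes named by p act on stored glycogen or lipid. Ppp1r3f, an X-linked subunit that brings protein phosphatase to glycogen, had 327, 382 and 435 normalised reads in Foxp2hum/hum libraries, against 409.9, 440.2 and 502 in wild-type libraries. It came near to separating the genotypes, with 8 of 12 Foxp2hum/hum libraries below every wild-type library, 8 of 11 wild-type libraries above every Foxp2hum/hum library, and all 12 Foxp2hum/hum values under the wild-type median. The difference was -0.25 ± 0.07 (SE), 1.19-fold lower, with an unadjusted limma p of 0.00046. Ccdc22 overlaps it with a value 40.4% as large. Lipe, the hormone-sensitive lipase, had 119.6, 153 and 184 in Foxp2hum/hum libraries, against 131, 202 and 270.2 in wild-type libraries. All 12 Foxp2hum/hum libraries lay below the wild-type median and 8 of 11 wild-type libraries above every Foxp2hum/hum library, and the difference was -0.40 ± 0.12, 1.32-fold lower (p of 0.00125). Pygm, the muscle form of glycogen phosphorylase, which astrocytes also make, had 145, 198 and 255 in Foxp2hum/hum libraries, against 183, 250.2 and 408 in wild-type libraries. The highest wild-type value came from library 72, 9 of 12 Foxp2hum/hum libraries lay inside the wild-type range, and the difference was -0.35 ± 0.10 (p of 0.00132), or -0.28 without library 72.

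These 3 were the only members at an unadjusted p under 0.05 (12.5% of the list, against 3.58% of all genes) among 24 tested genes of glycogen and lipid breakdown, a list drawn up with earlier results on these libraries known. None passed the adjusted test, 6 members lay above and 18 below 0, and the list's median was -0.06. The brain form of glycogen phosphorylase, Pygb, had 1413 to 1956 normalised reads in Foxp2hum/hum and 1414 to 2204 in wild-type libraries, with a difference of -0.08 ± 0.09 (p of 0.376). Ppp1r3c, another glycogen-targeting subunit, lay on the other side at 0.14 ± 0.08 (p of 0.102).

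Slc10a7, a bile acid transporter relative that tunes calcium entry, had 34.5, 58.9 and 103 normalised reads in Foxp2hum/hum libraries, against 58.9, 95.2 and 137 in wild-type libraries. Of the Foxp2hum/hum libraries 6 lay below the wild-type range and 11 below the wild-type median. Its difference of -0.64 ± 0.17 (SE), 1.55-fold lower, had the smallest p of the genes named by p or size (0.000429), and leaving out 1 dorsomedial library at a time kept it between -0.71 and -0.56. Pld1, the phospholipase D that makes phosphatidic acid, had 125, 161 and 181 in Foxp2hum/hum libraries, against 146, 204 and 297 in wild-type libraries. All 12 Foxp2hum/hum values lay under the wild-type median, the wild-type spread was the wider, with library 72 highest, and the difference was -0.38 ± 0.12 (p of 0.00226). Abtb2, an ankyrin and BTB domain protein, had 88.3, 104 and 128 in Foxp2hum/hum libraries, against 107, 131 and 184 in wild-type libraries, with 7 of 12 Foxp2hum/hum libraries below the wild-type range and a difference of -0.34 ± 0.10 (p of 0.00137). Ky, a protease of the muscle cytoskeleton, had 36.5, 63.1 and 87.2 in Foxp2hum/hum libraries, against 53.9, 98.3 and 132 in wild-type libraries, with all 12 under the wild-type median and a difference of -0.51 ± 0.16 (p of 0.00235).

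Sparc, a secreted glycoprotein that glia and vessels lay down in the matrix, had 2324, 2787 and 3209 normalised reads in Foxp2hum/hum libraries, against 2553, 3275 and 4263 in wild-type libraries. All 12 Foxp2hum/hum libraries lay below the wild-type median and 7 of 11 wild-type libraries above every Foxp2hum/hum library, while wild-type library 34 was the lowest of its group. The difference was -0.26 ± 0.09 (SE), 1.2-fold lower (p of 0.00394). Stab1, a scavenger receptor of vessels and macrophages, differed by -0.43 ± 0.14 (p of 0.00422), and Nt5dc2 overlaps it with a value 85.3% as large. Abi3bp, another matrix protein, differed by -0.53 ± 0.21 (p of 0.0131), with wild-type library 72 the highest. Hapln4, a link protein of perineuronal nets, differed by -0.44 ± 0.18 (p of 0.0178). Tenc1, a focal adhesion protein, differed by -0.42 (p of 0.0222, and 0.0553 without Foxp2hum/hum library 64) and overlaps the more abundant Spryd3. In AC133517.1 the difference was -0.68 (p of 0.00264).

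Nnt, the mitochondrial transhydrogenase that feeds NADPH to the glutathione system, had 223, 291 and 366 normalised reads in Foxp2hum/hum libraries, against 253, 444 and 551 in wild-type libraries. The wild-type values fell apart into 5 libraries at or below 309 and 6 at or above 444, and all 12 Foxp2hum/hum libraries stayed at or below 366. The difference was -0.43 ± 0.15 (SE), 1.35-fold lower (p of 0.00499), and ranged from -0.49 to -0.38 when any 1 library was left out. Every gene named on the higher and lower sides had an adjusted p of 0.955 in limma.

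**Figure D4:**
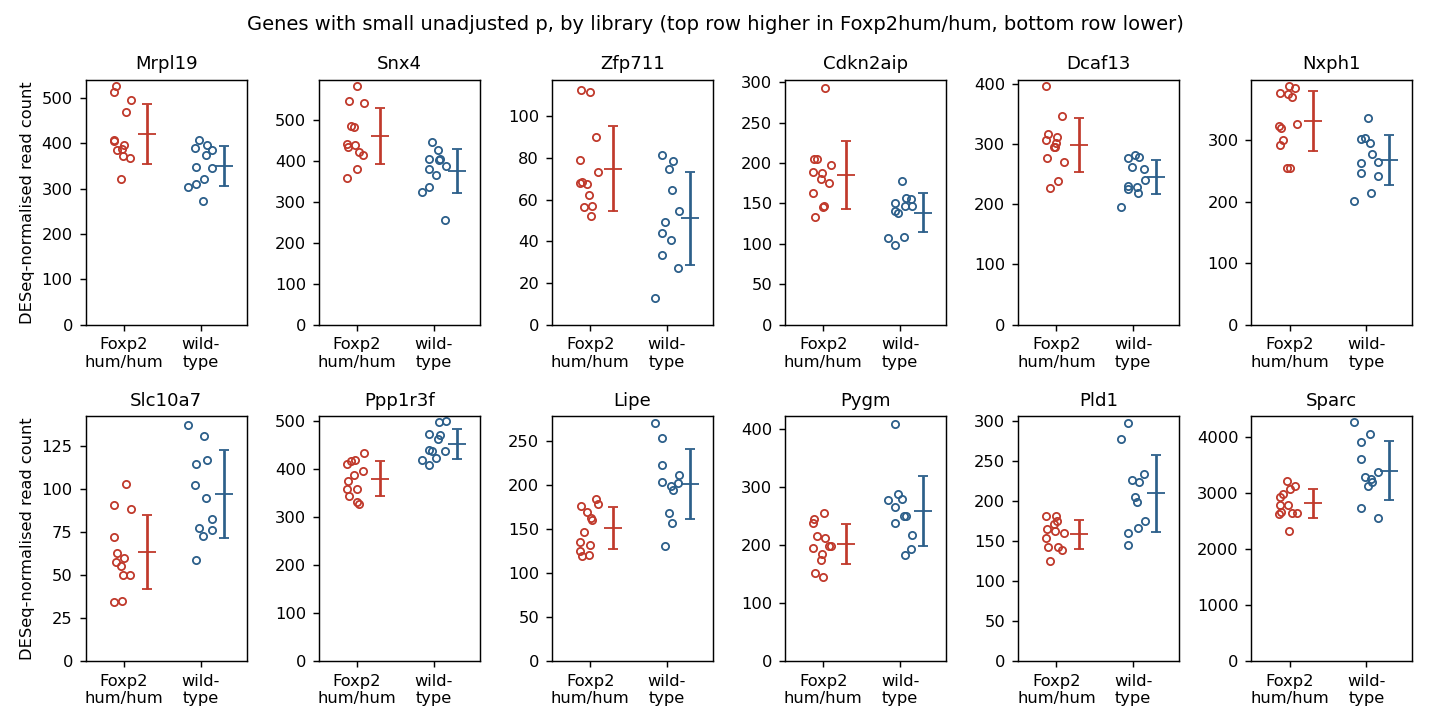
Normalised read counts of 12 of the genes named by p in the 12 Foxp2hum/hum (left) and 11 wild-type (right) dorsomedial libraries, with Mrpl19, Snx4, Zfp711, Cdkn2aip, Dcaf13 and Nxph1 above and Slc10a7, Ppp1r3f, Lipe, Pygm, Pld1 and Sparc below. Open points are libraries and bars mean ± SD, and in each gene the points of the genotypes overlap, least in Ppp1r3f.

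In the dorsolateral striatum the same genotype contrast, made on other libraries, also called 0 of 19561 genes, with 843 (4.31%) at an unadjusted p under 0.05. The interaction of genotype and region called 0 genes, with 321 (1.64%) at an unadjusted p under 0.05 and a smallest adjusted p of 0.9999, so no gene's genotype difference was shown to depend on region. Of the 700 genes at an unadjusted p under 0.05 in the dorsomedial striatum, 558 (79.7%) had the same sign in the dorsolateral striatum, against 68.0% of all genes tested. Whether the same mice gave both regions is not stated, so the contrasts may share animals. At an unadjusted p under 0.05 in both regions there were 64 genes of the same sign and 7 of opposite sign. Rbmx had dorsomedial and dorsolateral differences of 0.21 and 0.18 (p of 0.00664 and 0.0191), and Nnt of -0.43 and -0.29 (p of 0.00499 and 0.0549). Ppp1r3f gave -0.25 and -0.01, Mrpl19 0.26 and -0.0043, and Pld1 -0.38 and 0.06, with interaction p-values of 0.0147, 0.0261 and 0.0115 before adjustment.

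The neurons in which Foxp2 is most active had their defining transcripts at close levels in both genotypes. Drd1a, the D1 dopamine receptor of the direct pathway, had 2729, 3415 and 3991 normalised reads in Foxp2hum/hum libraries, against 2700.1, 3628 and 4086 in wild-type libraries. Every Foxp2hum/hum library lay inside the wild-type range, and the difference was -0.0079 ± 0.08 (SE) with an interval of -0.17 to 0.15. Drd2, the D2 receptor of the indirect pathway, had 3827, 4654 and 5313 in Foxp2hum/hum libraries, against 4072, 4827 and 6482 in wild-type libraries, with 10 of 12 inside the wild-type range and a difference of -0.12 ± 0.08 (p of 0.137). The opioid peptide precursor Penk had 25683 ± 2767 in Foxp2hum/hum and 25721 ± 1811 in wild-type libraries (SD), and the precursor Pdyn had 2224 ± 272 in Foxp2hum/hum and 2241 ± 312 in wild-type libraries. Their differences were -0.0072 and -0.0069, with intervals of -0.17 to 0.15 and -0.18 to 0.17. Of 18 medium spiny neuron genes, 0 reached an unadjusted p under 0.05, 15 lay below 0, and all 18 intervals lay within 1.5-fold, with a median of -0.08.

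Within the pathway lists, 1 of 10 direct-pathway genes and 1 of 8 indirect-pathway genes reached an unadjusted p under 0.05 (10% and 12.5%, against 3.58% of all genes), both lower. Sfxn1, a mitochondrial serine carrier, had 1593 to 2502 normalised reads in Foxp2hum/hum and 1674 to 2713 in wild-type libraries, with 11 of 12 Foxp2hum/hum libraries below the wild-type median and a difference of -0.17 ± 0.08 (p of 0.0452). Six3, a transcription factor of indirect-pathway neurons, had 817, 987 and 1263 in Foxp2hum/hum libraries, against 865, 1131 and 1645 in wild-type libraries. Its lowest value came from Foxp2hum/hum library 64 and its highest from wild-type library 72, and the difference was -0.24 ± 0.09 (p of 0.0143). The antisense transcript Six3os1 overlaps it with a value 21.1% as large. Isl1, a factor of direct-pathway and cholinergic neurons, lay on the higher side at 0.24 ± 0.14 (p of 0.0891).

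Dopamine receptors and their cascade were split: of 26 tested genes 11 lay above and 15 below 0, with a median of -0.03 that became 0.02 after quantile normalisation. Members at an unadjusted p under 0.05 were 1 in each direction (7.69% of the list, against 3.58% of all genes). Drd5, the scarce D5 receptor, had 5.74, 37.3 and 51.9 normalised reads in Foxp2hum/hum libraries, against 27.5, 43.8 and 66.8 in wild-type libraries. Foxp2hum/hum library 49 was the lowest, 5 of 12 lay below the wild-type range, and the difference was -0.63 ± 0.25 (p of 0.0136), with Gm16766 overlapping at 51.2% of its value. Maoa, the monoamine oxidase that clears dopamine and serotonin, had 323, 414 and 492 in Foxp2hum/hum libraries, against 261, 347 and 455 in wild-type libraries. Here 10 of 12 Foxp2hum/hum libraries lay above the wild-type median and the difference was 0.22 ± 0.09 (p of 0.0185). The abundant effectors were close: Adcy5, the striatal adenylyl cyclase, differed by -0.13 ± 0.13, and Pde10a, the phosphodiesterase of these neurons, by -0.12 ± 0.16.

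Genes of striatal plasticity gave no member at an unadjusted p under 0.05 in 20 tested endocannabinoid and long-term depression genes, 28 glutamate receptor genes or 20 GABA genes, lists in which 15, 23 and 14 members lay below 0. Their medians were -0.04, -0.09 and -0.06, and those of the glutamate and GABA lists became -0.02 and 0.01 with the mitochondrial share of each library as a covariate. Cnr1 had 1536 ± 183 normalised reads in Foxp2hum/hum and 1643 ± 425 in wild-type libraries (SD), a difference of -0.07 ± 0.11. Dagla, which makes the endocannabinoid 2-AG, differed by -0.20 ± 0.18 (p of 0.261), and Nos1, of nitric oxide interneurons, by -0.37 ± 0.25 (p of 0.144). Grin1, the obligate NMDA receptor subunit, had 1950.2 to 3761 in Foxp2hum/hum and 2249.7 to 4985 in wild-type libraries and differed by -0.23 ± 0.13 (p of 0.0898), with E130003G02Rik overlapping at 71.0% of its value. Gad1, which makes GABA, differed by -0.11 ± 0.08 (p of 0.19).

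Synaptic vesicle genes leaned to the lower side more evenly. Of 35 genes 33 lay below 0, with a median of -0.11, and 1 (2.86%, against 3.58% of all genes) had an unadjusted p under 0.05. Vamp2, the vesicle SNARE of fast release, had 9101, 10614 and 11915 normalised reads in Foxp2hum/hum libraries, against 9582, 11227 and 14603 in wild-type libraries. All but 1 Foxp2hum/hum library, number 64, lay inside the wild-type range, and the difference was -0.14 ± 0.07 (p of 0.0424). Syt1, the calcium sensor of release, differed by -0.05 ± 0.10 (p of 0.602), and Snap25, the membrane SNARE, by -0.04 ± 0.07 (p of 0.549). The list's median became -0.03 with the mitochondrial share as a covariate and -0.06 without wild-type library 72.

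Genes reported elsewhere as FOXP2 targets showed 0 of 20 tested members at an unadjusted p under 0.05, 15 of them below 0, with a median of -0.06. That median became -0.02 with the mitochondrial share as a covariate and -0.03 without wild-type library 72. Mef2c, a repressed target in striatal synapse formation in the mouse, had 1534 ± 275 normalised reads in Foxp2hum/hum and 1548 ± 312 in wild-type libraries (SD), a difference of -0.0076 ± 0.12 with an interval of -0.25 to 0.24. Cntnap2, a neurexin-family adhesion gene, differed by -0.05 ± 0.11 (p of 0.647), and Tacr1, the receptor of substance P, by -0.25 ± 0.14 (p of 0.0791). Slit1, an axon guidance ligand on this list and the next, differed by -0.37 ± 0.24 (p of 0.129). Among 31 outgrowth and guidance genes Sema6a, a transmembrane semaphorin, had the smallest p, with 192 to 481 in Foxp2hum/hum and 226 to 551 in wild-type libraries and a difference of -0.35 ± 0.18 (p of 0.063). In that list 25 of 31 lay below 0 with 0 at an unadjusted p under 0.05, and the median of -0.09 became -0.0066 with the mitochondrial share as a covariate.

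Immediate early genes, which neurons switch on within minutes of activity, had a wide spread between libraries. Of 21 tested, 19 lay below 0 with a median of -0.24, and 1 (4.76%, against 3.58% of all genes) had an unadjusted p under 0.05. That gene was Jund, a comparatively steady AP-1 subunit, which had 1420.2 to 2138 normalised reads in Foxp2hum/hum and 1689 to 2312 in wild-type libraries and a difference of -0.15 ± 0.07 (p of 0.047), with Gm11175 overlapping at 33.2% of its value. Arc, a regulator of AMPA receptor uptake, had 465, 2236 and 5505 in Foxp2hum/hum libraries, against 1681, 2567 and 3615 in wild-type libraries. The Foxp2hum/hum libraries reached beyond both ends of the wild-type range, with 2 above and 5 below it, and the difference was -0.55 ± 0.33 (p of 0.101). Fos had 26, 211 and 835 in Foxp2hum/hum libraries, against 155, 241 and 395 in wild-type libraries. Again 2 Foxp2hum/hum libraries lay above and 4 below the wild-type range, and the difference was -0.49 ± 0.48 (p of 0.314). The interval lay within 1.5-fold in 3 of the 21 genes, so a difference of that size was not excluded in most of them. The list's median became -0.11 with the mitochondrial share as a covariate, and in the dorsolateral striatum it was -0.17. The SD between libraries of 1 genotype of its median log2 level was 0.53. Its 22 measured genes summed to a median of 20904 normalised reads in Foxp2hum/hum and 20796 in wild-type libraries.

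Of the cell type marker lists, oligodendrocyte markers gave the largest share at an unadjusted p under 0.05. All 10 oligodendrocyte markers lay below 0, with a median of -0.14, and 3 (30%, against 3.58% of all genes) had an unadjusted p under 0.05. Olig2, the transcription factor of the oligodendrocyte lineage, had 259, 289.7 and 432 normalised reads in Foxp2hum/hum libraries, against 320.4, 366 and 463 in wild-type libraries. Of the Foxp2hum/hum libraries 8 lay below the wild-type range and 4 inside it, library 49 being the highest, and the difference was -0.28 ± 0.10 (p of 0.00676). Cldn11, a tight junction protein of myelin, differed by -0.18 ± 0.08 (p of 0.0245), and Sox10, the lineage factor beside Olig2, by -0.18 ± 0.09 (p of 0.0487). The main myelin genes overlapped more: Mbp differed by -0.13 ± 0.10 (p of 0.177) and Mog by -0.01 ± 0.14 (p of 0.932). In bulk captures fewer cells of a type and less RNA per cell cannot be told apart. The 10 markers can vary together between libraries, so they are not separate results. The SD between libraries of 1 genotype of the list's median log2 level was 0.16, against the median difference of -0.14. The markers summed to 89829, 105243 and 133341 normalised reads in Foxp2hum/hum libraries, against 91705, 112067 and 143863 in wild-type libraries, so the sums overlapped. In the dorsolateral striatum the list's median was 0.02, and 4 of the 10 markers had the same sign as in the dorsomedial striatum. Sox10 was the only 1 of them at an unadjusted p under 0.05 there, with a difference of -0.24 (p of 0.00903 in limma).

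Other cell type lists gave at most 1 such member each. Csf1r, the growth factor receptor microglia need to survive, had 925, 1103 and 1288 normalised reads in Foxp2hum/hum libraries, against 1034, 1291 and 1501 in wild-type libraries. All 12 Foxp2hum/hum libraries lay under the wild-type median and the difference was -0.19 ± 0.08 (p of 0.0283), with Hmgxb3 overlapping at 49.03% of its value. It was the only 1 of 7 microglial markers at an unadjusted p under 0.05 (14.3%, against 3.58% of all genes), and Cx3cr1, the fractalkine receptor, differed by -0.09. Astrocyte and vessel markers gave 0 of 8 and 0 of 9, with medians of -0.04 and -0.14. Among 9 interneuron markers 1 (11.1%, against 3.58% of all genes) reached an unadjusted p under 0.05. That marker was Pvalb, of fast-spiking cells, with 24.3, 44.7 and 95.2 in Foxp2hum/hum libraries, against 44, 68.4 and 103 in wild-type libraries. The groups overlapped, 6 of 12 Foxp2hum/hum libraries lay below the wild-type range, and the difference was -0.48 ± 0.20 (p of 0.0196). Chat, of cholinergic cells, differed by -0.23 ± 0.13 (p of 0.0747).

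Genes of protein synthesis and respiration leaned the other way. All 76 tested cytosolic ribosomal protein genes lay above 0, with a median of 0.13, and 0 had an unadjusted p under 0.05. The mitochondrial share also averaged higher, at 22.4% ± 3.84 in Foxp2hum/hum and 20.2% ± 4.16 in wild-type libraries (SD, n = 12 and 11). Nuclear genes of the respiratory chain gave 74 of 79 above 0 (median 0.12), mitochondrially encoded genes 32 of 37 (median 0.16) and mitochondrial ribosomal protein genes 65 of 76 (median 0.07). Rpl5, which with 5S RNA forms part of the large subunit, had 3884, 5481 and 7909.7 normalised reads in Foxp2hum/hum libraries, against 2285, 4702 and 6576 in wild-type libraries, and differed by 0.24 ± 0.14 (p of 0.0988), with Fam69a overlapping at 10.4% of its value. Cox6b2, a cytochrome oxidase subunit best known from testis, had 17.7 to 103 in Foxp2hum/hum and 13.2 to 52.9 in wild-type libraries, overlapping ranges with a difference of 0.58 ± 0.32 (p of 0.0801). Mrpl3 was the only mitochondrial ribosomal gene beside Mrpl19 at an unadjusted p under 0.05 (2 of 76, 2.63%, against 3.58% of all genes), with 0.18 ± 0.09 (p of 0.047). With the mitochondrial share as a covariate the 4 medians became 0.0043, 0.03, -0.03 and -0.01, and without wild-type library 72 the first was 0.06. The share is made up of the reads of the mitochondrially encoded genes. Their median was therefore bound to move towards 0, and the -0.03 shows nothing further. The members of such a list vary together between libraries, and the SD between libraries of 1 genotype of the cytosolic ribosomal list's median log2 level was 0.30, larger than its median difference.

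Of 37 mitochondrially encoded genes 2 (5.41%, against 3.58% of all genes) had an unadjusted p under 0.05, the proline and threonine tRNA genes mt-Tp and mt-Tt. The threonine tRNA gene mt-Tt had 332, 435 and 654 normalised reads in Foxp2hum/hum libraries, against 209, 380.5 and 545 in wild-type libraries, with 3 of 12 above the wild-type range and a difference of 0.37 ± 0.15 (p of 0.0161). The cytochrome oxidase subunit gene mt-Co1 had a median of 890738 in Foxp2hum/hum and 811550 in wild-type libraries, a difference of 0.12 ± 0.16 (p of 0.465). Among 30 ribosome biogenesis genes 2 (6.67%, against 3.58% of all genes) had an unadjusted p under 0.05, Dcaf13 and Nop56. Nop56, a box C/D snoRNP protein, differed by 0.20 ± 0.08 (p of 0.0159), and its reads cannot be told apart from those of the overlapping Idh3b. Among 26 sorting nexin and retromer genes there were also 2 (7.69%), Snx4 and Vps35. Vps35, the core of the retromer that recycles endosomal cargo, had 1745, 2039.8 and 2337 in Foxp2hum/hum libraries, against 1261, 1816 and 2193 in wild-type libraries. Of the Foxp2hum/hum libraries 11 lay above the wild-type median, and the difference was 0.18 ± 0.08 (p of 0.0345). The 30-gene list had 19 and the 26-gene list 17 members above 0, with medians of 0.04 and 0.06. Dcaf13 and Snx4 had already been named above for their small p in these libraries. Since the lists were chosen with earlier results known, the counts of both are descriptions only.

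**Figure D5:**
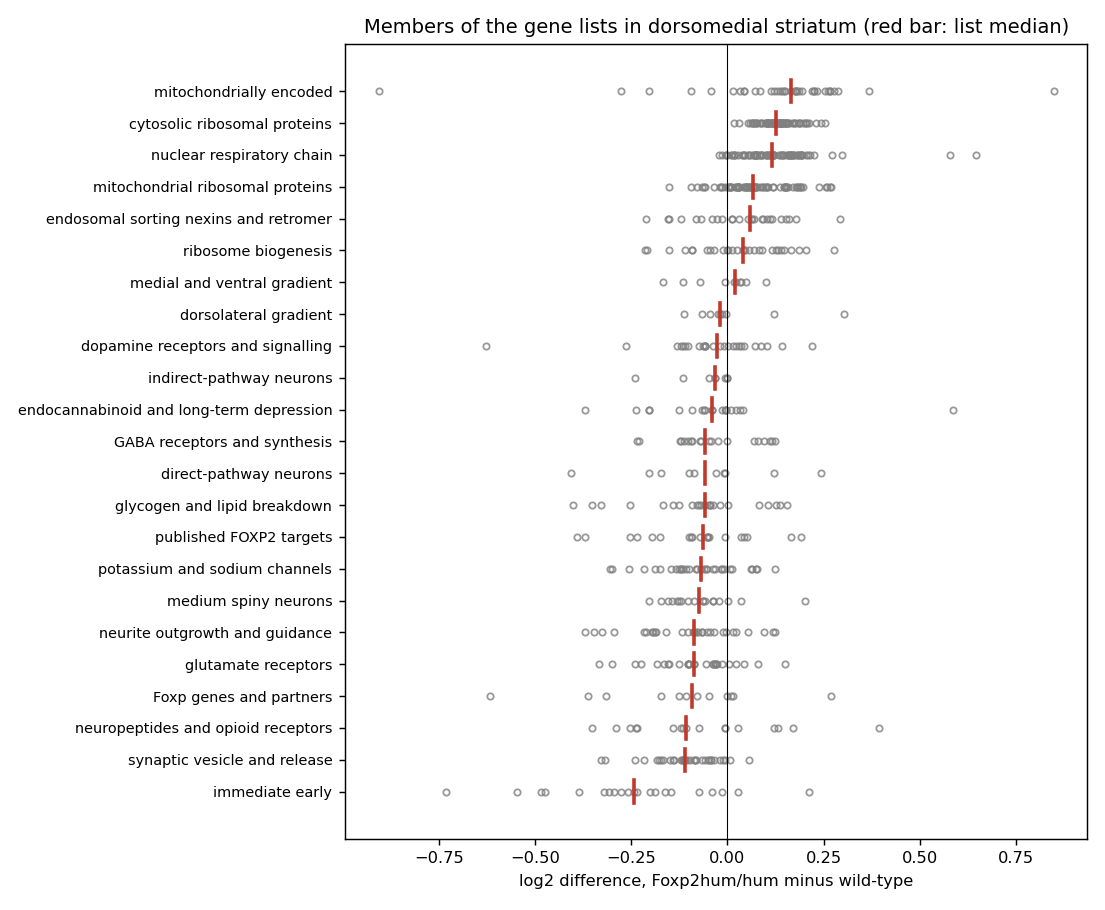
Log2 difference (Foxp2hum/hum minus wild-type) of each tested member of 23 gene lists, one open point per gene, with a red bar at each list's median. Lists run from mitochondrially encoded genes at the top (median 0.16) to immediate early genes at the bottom (median -0.24), and all members of the cytosolic ribosomal list lie right of 0.

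Ion channel and neuropeptide lists held no member at an unadjusted p under 0.05. Of 33 potassium and sodium channel genes 26 lay below 0 (median -0.07, and -0.00072 with the mitochondrial share as a covariate), and Kcnab2, an auxiliary subunit, had the smallest p at -0.17 ± 0.10 (p of 0.0848). Of 17 neuropeptide and opioid receptor genes 12 lay below 0 (median -0.11). Oprm1, the mu opioid receptor of striosomes, had 170.4 to 625 normalised reads in Foxp2hum/hum and 268 to 588 in wild-type libraries and differed by -0.35 ± 0.18 (p of 0.0571), with Ipcef1 overlapping at 138% of its value, while Nts, neurotensin, differed by 0.39 ± 0.27 (p of 0.149). The lists that mark position within the striatum stayed near 0, with medians of 0.02 for 10 medial and ventral genes and -0.02 for 9 dorsolateral genes. Aldh1a1, which makes retinoic acid, was the only 1 of the 9 at an unadjusted p under 0.05 (11.1%, against 3.58% of all genes). It had 102 to 215 in Foxp2hum/hum and 49.7 to 205 in wild-type libraries, with a difference of 0.30 ± 0.14 (p of 0.0357).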

How the data were processed

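Libraries of 8-week-old C57BL/6 mice were made from 15 ng of total RNA from laser captures, per the labels' protocols. The submitters' processing notes name TopHat 1.4.1, bedtools and DESeq with build mm9. Annotation and strand settings were not found in those notes. The deposited values are a signal, read counts per gene divided by DESeq size factors by the authors, for 25259 genes in 46 columns, of which 0 were left out. Every value was a whole multiple of 1 read's worth (tolerance 0.01; 100% of values), so whole reads were recovered for edgeR 4.0.16 and DESeq2 1.42.0, which served as alternatives. Of 412 gene pairs with one gene (mean of at least 500) inside another, the outer gene had at least as many reads in every library in 410, and in all 290 pairs on opposite strands, so reads of overlapping genes are shared. Overlap is given where the partner's value is at least 10% of the named gene's.

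The main test was limma 3.58.1 (R 4.3.3) on log2(value + 1) with 4 group means over all 46 libraries and a trended variance, for genes with a mean of at least 10, two-sided, with Benjamini-Hochberg adjustment at 0.05. A fold is on the log2(value + 1) scale and understates changes of low genes. Coordinates are those of GENCODE M1 on mm9. The fit was tested on simulated data. Named genes are Foxp2, the 10 smallest p per direction (higher group averaging 50 or more), the 5 largest differences per direction with a dorsomedial mean of at least 100 and unadjusted p under 0.05, both without numbered gene models, and up to 5 members a list. The members and lists were chosen with earlier results of these data known. Alternatives varied the pseudocount, filter, normalisation, tool, covariate and libraries.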

Additional observations from a re-analysis of the deposited data

How the results depend on the processing

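No gene was called for the genotype difference or its interaction with region with pseudocounts of 0.5 and 5, a mean of at least 50 or no filter, TMM or quantile normalisation, or array weights. For the genotype difference alone, none was called with the dorsomedial libraries alone, an adjusted p under 0.1, edgeR, DESeq2, covariates, or leaving out libraries. Xist as a covariate was added after the data had been seen. The count at an unadjusted p under 0.05, 700, became 447 with the mitochondrial share of each library as a covariate and 461 without libraries 70 and 72, and ranged from 453 (without wild-type library 72) to 989 (without wild-type library 34) when 1 dorsomedial library was left out; the cause was not tested. The Foxp2 log2 difference, 0.0085, changed sign with DESeq2 (-0.0051), edgeR (-0.0027), Ttr as a covariate (-0.039) and array weights (-0.041), and ranged from -0.048 to 0.046 with 1 library left out, all far inside its interval; the cause was not tested. The other 28 genes named by p or size kept their sign in the 37 settings run. Of 700 tested list and marker genes, 297 changed sign in at least 1 of them, among them Ctbp1 (-0.02 to 0.02), Drd1a (-0.05 to 0.05), Penk (-0.02 to 0.12) and Mef2c (-0.06 to 0.05), but none of the 23 at an unadjusted p under 0.05. The 28 and the 23 were picked for small p-values in the main fit, which by itself favours a kept sign. Their kept signs therefore show nothing further. No paired analysis was possible because the labels give each group 1 sample and its library numbers are not shared between the groups. Depth (17.98 to 34.8 M reads) and the spread between libraries limited precision most for genes of low level. Sex, animal and flow cell are not labelled by library, and reads of overlapping genes cannot be told apart.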

Other observations

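A run of near-identical genes on chromosome 2 appeared repeatedly among the smallest p-values, and it was picked out after those values were seen, so its counts are descriptions with no test. In chr2:175016566-177692002 (mm9) 62 genes were tested, and 54 lay above 0 in the dorsomedial striatum with a median log2 difference of 0.23. Of the 62, 24 had an unadjusted p under 0.05, against 3.58% of all genes tested. Of the 50 genes with the smallest p in the whole comparison, 10 came from this region. Gm14391 had 1046, 1241 and 1535 normalised reads in Foxp2hum/hum libraries, against 472, 1045 and 1494 in wild-type libraries, a difference of 0.43 ± 0.13 (SE, p of 0.0015 in limma). All 12 Foxp2hum/hum libraries lay above the wild-type median, and wild-type library 76 was the lowest of all. Gm14295 had 1144 to 1730.0 in Foxp2hum/hum and 684 to 1797 in wild-type libraries, with library 72 the lowest (difference 0.39 ± 0.13, p of 0.003). In the dorsolateral libraries 55 of the 62 lay above 0, with a median of 0.19. There 6 of the 62 had an unadjusted p under 0.05, against 4.31% of all genes tested. Reads of such copies may be split or shared between them, so the 62 are not separate measurements.

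Nnt and Foxp2 split the wild-type libraries alike, though their order within each part differed, which was also noticed after the values were seen. The 6 wild-type libraries with the highest Nnt (24, 32, 65, 72, 88 and 93, at 444 or more, the others at 309 or less) were the same 6 as those with the highest Foxp2 (1435 or more, the others at 1226 or less). In Foxp2hum/hum mice library 84 was the highest for both genes. The same 6 wild-type libraries were also the highest for Cnr1 (1524 or more, the others at 1520.3 or less). The split was thus not particular to Nnt and Foxp2.

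Kcnip1, a potassium channel partner, had 3335, 7138 and 23166 normalised reads in Foxp2hum/hum and 3949, 6089 and 228795 in wild-type dorsomedial libraries. The highest value belonged to library 72, and the next highest of all 46 libraries, 117635, to dorsolateral wild-type library 70.

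The spread between libraries was the smaller in the Foxp2hum/hum group for most genes: the median over genes of the SD of log2 values was 0.32 in Foxp2hum/hum and 0.34 in wild-type libraries, and 39.9% of genes had the larger SD in Foxp2hum/hum.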
